A study of Mus musculus with 12 samples.

Results

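The small nucleolar RNA (snoRNA) host genes are noncoding genes whose primary transcripts carry snoRNAs, and 8 of them were sought, namely Snhg1, Snhg3, Snhg5, Snhg6, Snhg7, Snhg8, Snhg12 and Gas5. All exon and intron lines of every transcript with one of these GENCODE gene names were taken. By name, 3 hosts were found, Gas5 with 25 transcripts, Snhg12 with 6 and Snhg3 with 5. A further 2 loci, those of Snhg1 and Snhg7, were found by position, as their gene extents in the locus table of the study are identical to those of the GENCODE M1 genes Snhg1 and Snhg7. Each of these 2 loci is represented by 1 transcript. The hosts thus comprise 5 genes and 38 of the 121429 transcripts with an exon line, and 75 exon and intron lines in all. Snhg5, Snhg6 and Snhg8 were not analysed here.

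The cells were mouse embryonic stem cells (mESCs) of the DTCM23/49 XY line, which are pluripotent and were grown on gelatin with serum and LIF. All cells received the uridine analog 4-thiouridine (4sU) at 200 µM, for 15, 30 or 60 min, so that RNA made in this interval could be biotinylated and pulled down as labeled RNA. Labeled and total RNA of the same cultures were sequenced at each labeling time in 2 biological replicates, which are 2 parts of 1 culture passaged apart, giving 6 groups of 2 libraries. The 12 libraries comprise 6 of labeled and 6 of total RNA, and no library of cells without 4sU was analysed here, so the background of the pull-down was not measured.

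The deposited values are length-normalized abundances, and all values of a library sum to between 19988830 and 19992902, so that the depth behind a value is unknown and only differences between libraries carry an error here. In total RNA all 8 mESC markers examined, Nanog and Pou5f1 among them, had a mean value of at least 20, and their summed value ranged from 20570 to 29010. Of 8 markers of differentiated lineages 1 (Pax6, 48.3) reached this level, with sums of 22.1 to 166, and of 6 fibroblast or feeder markers 2 did (Thy1 and Acta2), with sums of 119 to 142, while Col3a1 and Dcn were at 0. In labeled RNA the sums ranged from 19347 to 31969 for mESC markers and reached at most 192 and 105 for the other lists. Introns held 14.8% and 13.9% of the values in the labeled RNA of replicate 1 at 15 and 60 min, 7.24% and 6.99% in that of replicate 2, 9.35% and 10.8% at 30 min, and 6.53% to 7.41% in total RNA. The part of these shares in the intronic comparisons below was not tested. Fewer cells that express a gene and less RNA per cell cannot be told apart in such libraries.

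snoRNAs guide the chemical modification of other RNAs, mainly ribosomal RNA. C/D box snoRNAs direct 2′-O-methylation and H/ACA box snoRNAs direct pseudouridylation. In mammals most of them lie in introns of host genes, are released when the excised intron is debranched, and survive as small RNAs protected by bound proteins. The spliced exons of noncoding hosts such as Gas5 are known for rapid turnover, in part through nonsense-mediated decay (NMD), and the hosts belong to the growth-linked genes whose transcripts begin with a tract of pyrimidines.

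Positions are given in mm9, the build of GENCODE M1 and of the study's locus table, whereas the submitters' processing notes name mm10. The deposited table holds no positions, and genes were matched by identifier. Gas5 (ENSMUSG00000053332), a host of C/D box snoRNAs, lies on chr1:162964553-162968670 on the plus strand, and 428 bp of it overlap Zbtb37 on the opposite strand. Snhg12 (ENSMUSG00000086290) lies on chr4:131864593-131866939 on the plus strand. Snhg3 (ENSMUSG00000085241), the host of U17, lies on chr4:131903929-131909601 on the minus strand. It shares 5592 bp with Rcc1 on the same strand and 1611 bp with Gm17300 on the opposite strand. Snhg1 (ENSMUSG00000097188) lies on chr19:8797986-8800932 on the plus strand, and Snhg7 (ENSMUSG00000097052) on chr2:26492697-26495764 on the minus strand. Whether strand was used in quantification is not given in the sources used here, so reads of overlapping genes may be shared.

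In GENCODE M1, 27 snoRNAs lie inside the hosts on the same strand, and 25 of them have a line in the deposited table. The intronic arrangement of a host can be seen in Snhg12, of which 2 introns of transcript ENSMUST00000144705 are shown because each carries 1 snoRNA whose own line has a value in all 12 libraries. They lie on chr4:131865819-131866065 and chr4:131866131-131866365 on the plus strand, run from gt to ag, and hold Snora44 and Snora61, both H/ACA box snoRNAs, in capitals.
Snhg12 intron with Snora44: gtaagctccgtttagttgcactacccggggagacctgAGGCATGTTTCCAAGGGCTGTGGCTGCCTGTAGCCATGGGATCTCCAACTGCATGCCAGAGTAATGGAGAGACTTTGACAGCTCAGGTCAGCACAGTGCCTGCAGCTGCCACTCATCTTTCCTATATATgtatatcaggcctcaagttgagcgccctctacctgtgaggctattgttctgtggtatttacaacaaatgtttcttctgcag
Snhg12 intron with Snora61: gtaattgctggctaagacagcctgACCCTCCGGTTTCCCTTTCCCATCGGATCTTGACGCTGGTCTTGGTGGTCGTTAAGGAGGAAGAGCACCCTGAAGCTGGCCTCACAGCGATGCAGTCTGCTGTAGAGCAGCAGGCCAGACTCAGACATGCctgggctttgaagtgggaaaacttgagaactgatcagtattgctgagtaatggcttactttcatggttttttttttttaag

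These introns are 247 and 235 bases long, and in both the snoRNA ends 81 bases before the next exon. Over the combinations of a snoRNA and an annotated intron around it, in which a long intron can hold several snoRNAs, the median distance from the end of the snoRNA to the next exon was 158 bases for 18 combinations in Gas5, 81 bases for 4 in Snhg12 and 77 bases for 4 in Snhg3.

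The introns of Snhg3 carry 2 copies of U17, an H/ACA box snoRNA that takes part in the cleavage of pre-ribosomal RNA rather than in modification. They are shown because they are near-identical, with the bases that differ in capitals. Snora73a lies on chr4:131908690-131908894 and Snora73b on chr4:131908237-131908441, both on the minus strand and given 5′ to 3′.
Snora73a: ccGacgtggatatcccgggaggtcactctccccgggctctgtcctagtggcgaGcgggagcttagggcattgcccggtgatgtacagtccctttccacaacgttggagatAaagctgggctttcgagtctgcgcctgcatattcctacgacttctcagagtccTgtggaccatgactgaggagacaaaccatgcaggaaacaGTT
Snora73b: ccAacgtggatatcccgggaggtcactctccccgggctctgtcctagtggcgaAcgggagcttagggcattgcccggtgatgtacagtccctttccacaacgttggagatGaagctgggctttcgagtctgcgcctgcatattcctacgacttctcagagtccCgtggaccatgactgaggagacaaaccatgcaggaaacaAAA

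Of 205 bases, 198 are the same in both copies (96.6%), so reads of one can be counted for the other and the split between them is uncertain. The remaining sequences belong to snoRNAs whose values are described below. Snord22 of Snhg1 (chr19:8800356-8800481, plus strand) and SNORD79 of Gas5 (chr1:162967487-162967570, plus strand) are C/D box snoRNAs and are shown with CTGA of the D box and, in SNORD79, TGATGA of the C box in capitals. Snora17 of Snhg7 (chr2:26494710-26494841, minus strand) is shown with its ACA box in capitals.
Snord22: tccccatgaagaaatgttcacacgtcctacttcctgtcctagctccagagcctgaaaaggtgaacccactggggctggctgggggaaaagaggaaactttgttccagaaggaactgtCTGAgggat
SNORD79: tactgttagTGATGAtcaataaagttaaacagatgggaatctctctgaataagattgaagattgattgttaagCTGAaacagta
Snora17: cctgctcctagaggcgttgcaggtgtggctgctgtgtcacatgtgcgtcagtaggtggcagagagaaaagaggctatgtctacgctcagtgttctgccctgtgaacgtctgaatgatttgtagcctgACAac

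Of the GENCODE M1 snoRNAs of 100 bases or longer, 60.8% (666 of 1096) hold ACA within their last 6 bases, and of the shorter ones 12.5% (57 of 456). TGATGA within the first 15 and CTGA within the last 15 bases were held together by 1.46% (16 of 1096) and 53.7% (245 of 456). Only the annotated strand was searched.

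The first comparison asked whether each host's exonic RNA was enriched in labeled over total RNA. As every library has the same sum, the difference is relative to all RNA and does not give the fraction newly made. Of the 5 hosts 4 were higher in labeled RNA, Gas5, Snhg12, Snhg3 and Snhg1, by 1.88- to 2.27-fold (limma, with the labeling time in the model, on values logged to base 2 after adding 1; a gene passed at a Benjamini-Hochberg adjusted p under 0.05). Among all 13979 genes tested, 5.29% were higher and 11.6% were lower at this threshold, and the median log2 difference of all genes was -0.05. With libraries paired by replicate number 3 of the 5 hosts passed, among 1271 genes in place of 2354.

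Gas5, whose RNA is known as a growth arrest-specific transcript, had summed exonic values of 53925 to 79472 in the 6 labeled libraries (median 62206) and of 30161 to 38729 in the 6 total libraries (median 32699). The lowest labeled library stood above the highest total library, which held for 2.73% of all genes tested. The difference was 0.94 on the log2 scale (SE 0.12, 1.91-fold, limma adjusted p = 0.000982). Of the 25 transcripts in this sum, 16 hold at least 1 snoRNA inside an annotated exon. The sum thus includes retained intronic sequence and is not a value of the spliced exons alone.

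Snhg12 ranged from 3116 to 5946 in labeled RNA (median 4976) and from 1748 to 2245 in total RNA (median 2142), again without overlap. Its log2 difference was 1.12 (SE 0.17, 2.17-fold, limma adjusted p = 0.0021). Of its 6 transcripts 3 hold a snoRNA inside an annotated exon. The 2 lowest labeled values came from replicate 1 at 15 and 60 min (3209 and 3116).

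The Snhg1 locus ranged from 642 to 1204 in labeled RNA (median 1005) and from 299 to 544 in total RNA (median 465), without overlap, and differed by 1.18 (SE 0.17, 2.27-fold, limma adjusted p = 0.00153). Its only measured transcript, ENSMUST00000181422, contains 7 of the locus's 8 annotated snoRNAs inside annotated exons, so its exonic value includes sequence that is intronic in the known spliced host. Reads of the spliced exons and of the snoRNA-bearing stretches cannot be told apart in this value.

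Snhg3 ranged from 2630 to 6122 in labeled RNA (median 4324) and from 1691 to 3515 in total RNA (median 2000). The groups overlapped, as replicate 1 at 60 min was at 2630 in labeled and 3515 in total RNA, while labeled RNA was higher in the other 5 pairs of libraries. The log2 difference was 0.91 (SE 0.23, 1.88-fold, limma adjusted p = 0.0206), and with pairing by replicate number the adjusted p was 0.0597. Rcc1, which shares most of the Snhg3 locus on the same strand, had exonic values of 271 ± 77.2 in labeled and 291 ± 45.5 in total RNA (SD, n = 6), a log2 difference of -0.14 (SE 0.19, limma adjusted p = 0.652). The antisense gene Gm17300 was at 586 ± 125 and 276 ± 44.2 (SD, n = 6), a log2 difference of 1.07 (SE 0.16, limma adjusted p = 0.00187). By intronic value Rcc1 was higher in labeled RNA, at 227 ± 62.8 and 119 ± 16.4 (SD, n = 6). That log2 difference was 0.89 (SE 0.25, limma adjusted p = 0.0153).

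The Snhg7 locus was the least abundant, with 33.4 to 210 in labeled RNA (median 105) and 0 to 82.1 in total RNA (median 44.0). The groups overlapped, labeled RNA was higher in 5 of 6 pairs, and the total RNA of replicate 1 at 15 min is listed at 0. The log2 difference of 1.89 (SE 0.89) did not pass the test (limma adjusted p = 0.164). Over 11 alternatives it ran from 0.35 to 3.42. Both annotated snoRNAs of this locus lie inside exons of its transcript ENSMUST00000181621.

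**Figure D1:**
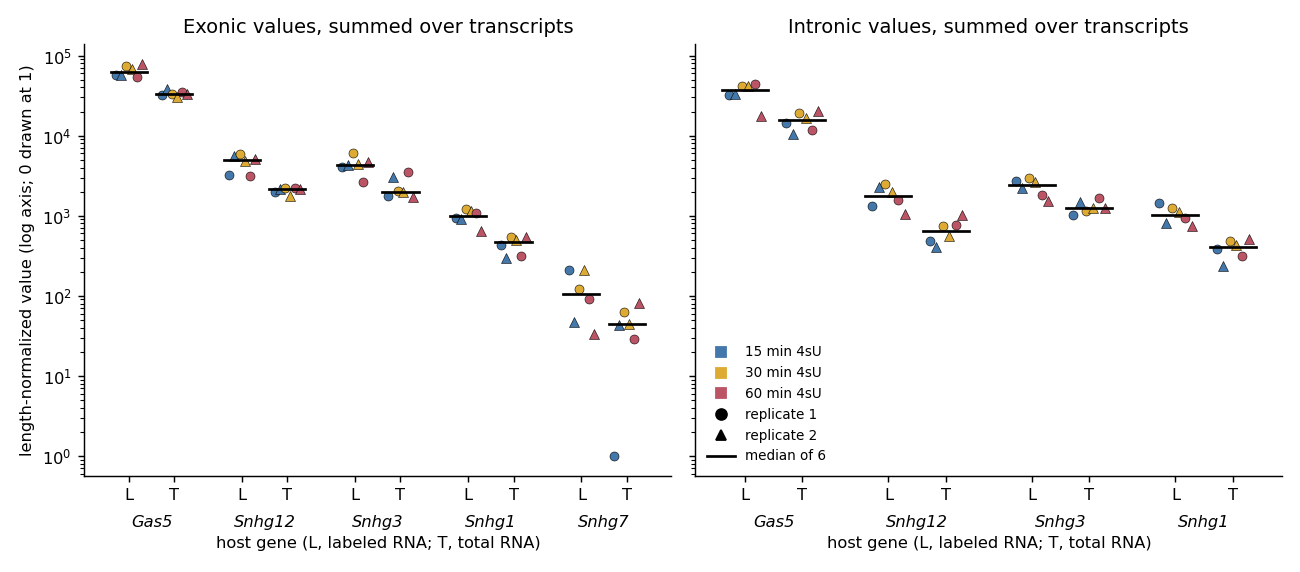
Summed exonic (left) and intronic (right) values of each host in every library, on a log axis, for labeled (L) and total (T) RNA; color gives the labeling time, the symbol the replicate and the bar the median of 6 libraries. The labeled exonic values of Gas5, Snhg12 and Snhg1 lie above all total values, while those of Snhg3 and Snhg7 overlap.

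Leaving libraries out changed these calls but no direction. Without replicate 1 or without replicate 2 no host passed, among 0 and 5 genes called, and without the 30 min libraries no host passed among 1 gene called. Without those libraries the log2 differences were 0.82 for Gas5, 0.95 for Snhg12, 1.19 for Snhg1 and 0.68 for Snhg3. Without the 15 min libraries 3 of 5 hosts passed, and Snhg3 did not (limma adjusted p = 0.116).

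The second comparison concerned the introns, which hold the snoRNAs of Gas5, Snhg12 and Snhg3. Introns of 4 hosts were measured and all 4 were higher in labeled RNA, against 32.3% of the 9118 genes tested with intronic values. The log2 difference was 1.43 for Snhg12 (SE 0.26, limma adjusted p = 0.00196), 1.43 for Snhg1 (SE 0.25, limma adjusted p = 0.00143), 1.17 for Gas5 (SE 0.20, limma adjusted p = 0.00132) and 0.82 for Snhg3 (SE 0.21, limma adjusted p = 0.0092). In either direction 32.6% of genes passed, and the median of all genes was itself 0.65 higher in labeled RNA. With each library centered on its median, Snhg1 alone of the 4 passed, and the split of all calls was 757 higher and 957 lower, in place of 2947 higher and 30 lower. Relative to the all-gene median the differences of the hosts were thus 0.79 for Snhg12, 0.78 for Snhg1, 0.52 for Gas5 and 0.17 for Snhg3. Without replicate 1, 2 of the 4 hosts passed, and without the 30 min libraries none did, among 0 genes called.

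The intronic values of Gas5 ranged from 17820 to 44444 in labeled RNA (median 37203) and from 10349 to 20593 in total RNA (median 15492). The groups overlapped because of 1 pair, as replicate 2 at 60 min was at 17820 in labeled and 20593 in total RNA. Those of Snhg12 ranged from 1063 to 2481 (median 1753) and from 403 to 1019 (median 653), without overlap. Those of Snhg3 ranged from 1535 to 2934 (median 2452) and from 1013 to 1672 (median 1243), with overlap, although labeled RNA was higher in 6 of 6 pairs. Those of Snhg1, an intron of 228 bases in all, ranged from 743 to 1448 (median 1032) and from 234 to 515 (median 409), without overlap. Among all genes, 17.0% had intronic values without overlap in this direction.

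In total RNA the intronic share of the hosts was above that of the median gene. Median percentiles were 82.9 for Gas5, 70.4 for Snhg12, 85.8 for Snhg3 and 92.2 for Snhg1. For Snhg1 an intron of 228 bases is set against exons that include 7 snoRNAs. Its ratio and its processing rate below are therefore hard to set beside those of the other hosts. Per unit length, the intronic value was 47.1% ± 14.7 of the exonic value for Gas5, 31.7% ± 9.70 for Snhg12, 57.8% ± 9.37 for Snhg3 and 89.7% ± 7.63 for Snhg1 (SD, n = 6), beside a median of 17.0% over all genes. In labeled RNA the shares were 56.3% ± 19.3, 39.2% ± 9.62, 55.2% ± 13.7 and 108% ± 24.5 (SD, n = 6), beside a median of 30.6%. In most genes the exon to intron ratio was lower in labeled RNA, with a median log2 difference of -0.68 and 26.8% of 7732 genes lower at the threshold. None of the 4 hosts passed this test. Their log2 differences were -0.23 for Gas5 (SE 0.33), -0.31 for Snhg12 (SE 0.30), 0.10 for Snhg3 (SE 0.27) and -0.24 for Snhg1 (SE 0.24), with limma adjusted p of 0.573, 0.404, 0.773 and 0.406. With SEs of this size, these values do not show that the ratio of the hosts was the same in labeled and total RNA.

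**Figure D2:**
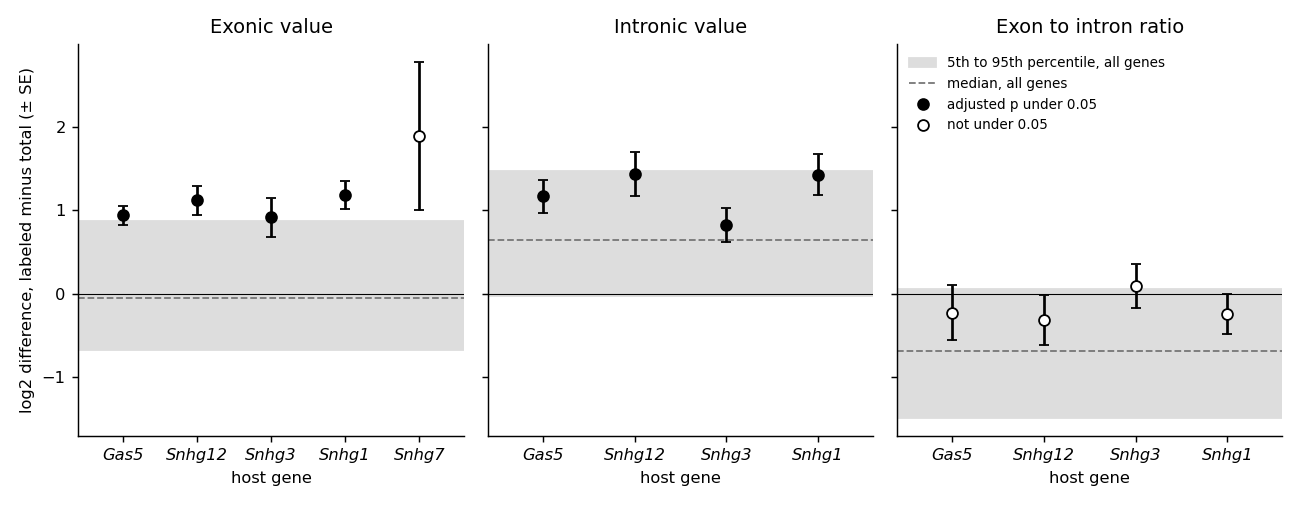
Log2 difference between labeled and total RNA (points, bars are SE) of the exonic value, the intronic value and the exon to intron ratio of each host; the band spans the 5th to 95th percentile of all genes and the dashed line is their median. The exonic differences of Gas5, Snhg12, Snhg3 and Snhg1 lie above the band, while the intronic differences lie inside it.

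At the level of transcripts, all 38 host transcripts had a higher exonic value in labeled than in total RNA on average, and 28 passed the test, against 5.28% of 45537 transcripts. With pairing by replicate number 25 of 38 passed. The median log2 difference was 0.97 over the 38 host transcripts and -0.09 over all transcripts. Transcripts of a gene share exons and hence reads, so they are not independent. In 17 of the 38 the labeled libraries stood above all total libraries, against 2.62% of all transcripts.

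In Gas5 17 of 25 transcripts passed, with log2 differences of 0.57 to 1.44. The highest was that of ENSMUST00000160516 (1.44, SE 0.14, limma adjusted p = 0.000427), a transcript of 2 exons with values of 1971 to 2187 in labeled and 517 to 1083 in total RNA. The lowest was that of ENSMUST00000159663 (0.57, SE 0.34, limma adjusted p = 0.269), which has 8 exons and values of 335 to 1568 and 330 to 853. The most abundant transcript, ENSMUST00000161623, has 6 exons and ranged from 2470 to 9223 in labeled and from 1973 to 3680 in total RNA (log2 difference 0.77, SE 0.29, limma adjusted p = 0.0874).

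The Gas5 transcripts differ in how many snoRNAs lie inside their annotated exons, that is, in how much intronic sequence they retain. Of 16 transcripts with at least 1 snoRNA inside an exon 14 passed, with a median log2 difference of 1.05 and a median SE of 0.14. Of 9 transcripts with none, among them ENSMUST00000162558 with 12 exons, 3 passed, with a median of 0.69 and a median SE of 0.31. The difference between these sets was not tested, as their transcripts share exons. Within a gene, no host transcript passed the test of its share of the gene's exonic value between labeled and total RNA (0 of 36, limma, lowest adjusted p = 0.171, 3 at an unadjusted p under 0.05), beside 1.13% of 27272 transcripts.

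In Snhg12 all 6 transcripts passed, from 0.90 for ENSMUST00000128000 (SE 0.20, limma adjusted p = 0.0124) to 1.34 for ENSMUST00000144705 (SE 0.21, limma adjusted p = 0.00246), which carries Snord99 inside its last exon. In Snhg3 4 of 5 passed, from 0.73 for ENSMUST00000155816 (SE 0.31, limma adjusted p = 0.133) to 1.02 for ENSMUST00000151374 (SE 0.23, limma adjusted p = 0.0131).

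**Figure D3:**
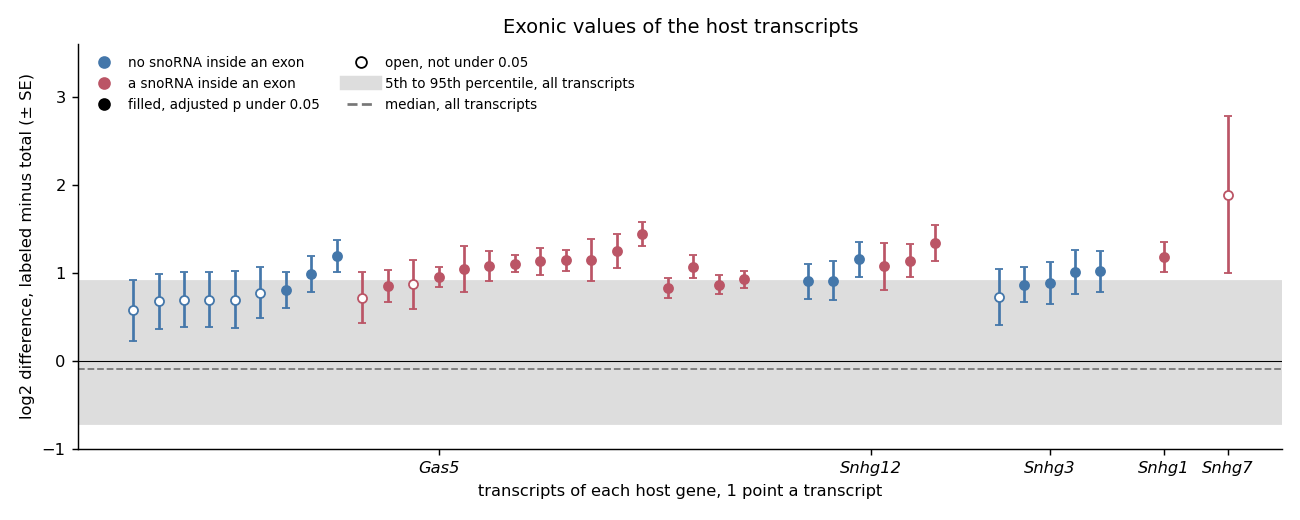
Log2 difference between labeled and total RNA (bars are SE) of each of the 38 host transcripts, sorted within a host by the number of snoRNAs inside its exons; filled points passed the test, and the band and dashed line give the 5th to 95th percentile and the median of all transcripts. All 38 points lie above 0, and the open points of Gas5 are mostly transcripts with no snoRNA inside an exon.

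The snoRNAs themselves were measured for the longer species only. Of the 25 snoRNAs of the hosts in the table, 8 are at least 100 bases long and 6 of these had a value in all 12 libraries. Of the 17 shorter ones 0 had one in all 12, and 5 snoRNAs had no value at all. Among all snoRNA transcripts listed, 100 of the 1030 of at least 100 bases had a value in every library, as did 0 of 254 shorter ones. The reads were 100 nucleotides long, so that a value for a short snoRNA line needs reads that run beyond or around it, and mature snoRNA and host precursor cannot be told apart in these values.

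All 6 snoRNAs with a value in every library passed as higher in labeled RNA, beside 5.28% of all transcripts. Snora44 of Snhg12 ranged from 276 to 568 in labeled RNA (median 375) and from 38.8 to 199 in total RNA (median 152), a log2 difference of 1.74 (SE 0.34, limma adjusted p = 0.0063). Snora61 in the neighboring intron ranged from 184 to 552 (median 487) and from 73.2 to 212 (median 141), a difference of 1.51 (SE 0.31, limma adjusted p = 0.00903). Snora44 did not overlap between labeled and total RNA, whereas Snora61 did, through replicate 2 at 60 min.

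Snord22 of Snhg1 ranged from 976 to 3341 (median 2321) and from 520 to 1413 (median 1000), with a log2 difference of 1.29 (SE 0.30, limma adjusted p = 0.0139). The groups overlapped through replicate 2 at 60 min. Of the other snoRNAs of this locus SNORD27, SNORD28, SNORD29 and SNORD31 each had a value in 1 labeled library and in no total library. Snora17 of Snhg7 ranged from 89.0 to 140 (median 104) and from 28.7 to 68.9 (median 44.9), without overlap, with a difference of 1.26 (SE 0.22, limma adjusted p = 0.00372). The other snoRNA of that locus, Snora43, had no value in 1 total library and did not pass (log2 difference 1.46, SE 0.90, limma adjusted p = 0.284).

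The U17 copies of Snhg3 showed the smallest differences of the 6. Snora73a ranged from 753 to 1857 in labeled RNA (median 1505) and from 630 to 907 in total RNA (median 749), with a log2 difference of 0.88 (SE 0.19, limma adjusted p = 0.0118). Snora73b ranged from 559 to 1228 (median 1004) and from 466 to 644 (median 543), with a difference of 0.77 (SE 0.18, limma adjusted p = 0.0157). Both overlapped, through replicate 2 at 60 min. Of the C/D box snoRNAs of Gas5, SNORD79 had a value in 6 labeled libraries (769 to 2729) and in 3 of 6 total libraries (315 to 853). It passed the test (limma adjusted p = 0.0475), but its fold change depends on the libraries listed at 0 and is not given, and it passed under 6 of 12 alternatives. The other snoRNAs of Gas5 with a value did not pass. SNORD24 had a value in 6 labeled and 3 total libraries (limma adjusted p = 0.129) and SNORD77 in 6 and 4 (limma adjusted p = 0.137). Snord47 had one in 5 and 2 (limma adjusted p = 0.114), SNORD74 in 4 and 2 (limma adjusted p = 0.368), SNORD81 in 3 and 2 (limma adjusted p = 0.718) and SNORD78 in 1 and 0 (limma adjusted p = 0.624).

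**Figure D4:**
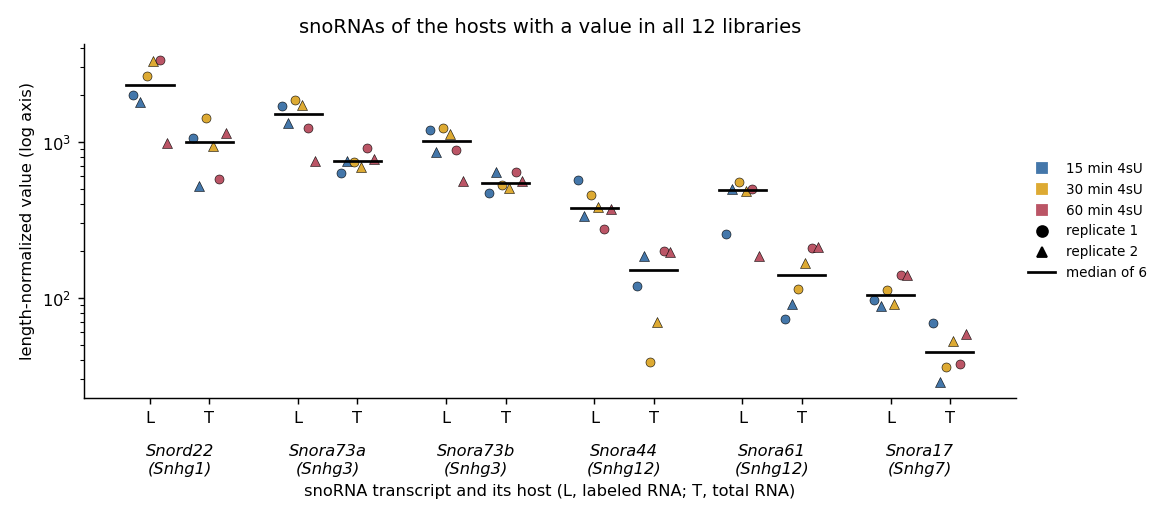
Exonic values, on a log axis, of the 6 host snoRNAs with a value in all 12 libraries, in labeled (L) and total (T) RNA, with color for the labeling time, symbol for the replicate and a bar for the median of 6. Snora44 and Snora17 are separated between labeled and total RNA, and the other 4 overlap through replicate 2 at 60 min.

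Between labeling times no host passed the test. Between 60 and 15 min, 0 of 13979 genes passed in labeled RNA (0.0%, limma, 178 at an unadjusted p under 0.05) and 0 in total RNA (0.0%, 108 at an unadjusted p under 0.05). The log2 difference between labeled and total RNA at 60 min minus that at 15 min was 0.25 (SE 0.28) for Gas5, -0.18 (SE 0.42) for Snhg12, -0.33 (SE 0.56) for Snhg3, -0.37 (SE 0.44) for Snhg1 and -3.74 (SE 2.06) for Snhg7, with 0 genes passing (162 at an unadjusted p under 0.05). The value of Snhg7 depends on the total RNA of replicate 1 at 15 min, which is listed at 0.

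Rates of synthesis, processing and degradation were then derived for each pair of labeled and total libraries. The synthesis rate is the labeled exonic value per hour of labeling, the processing rate is synthesis divided by the total intronic value, and the degradation rate is synthesis divided by the total exonic minus the total intronic value. As every library has the same sum, a rate per hour falls as the labeling time grows (for Gas5 processing, 19.0 at 15 min, 7.87 at 30 min and 4.20 at 60 min), so rates are given against the median gene of the same pair on the log2 scale, as mean ± SD over the 6 pairs. They are descriptions and were not tested, and they share their labeled and total values with the comparisons above.

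The degradation rates of Gas5, Snhg12, Snhg3 and Snhg1 were above the median gene in every pair with a rate. The Snhg1 locus stood highest, at 4.19 ± 0.60 (SD, n = 5), the 99.4th percentile of 12955 genes. This rate rests on a small difference between exonic and intronic values, which was negative in the total RNA of replicate 1 at 60 min (316.4 exonic and 316.7 intronic) and gave no rate there. Snhg3 followed at 2.05 ± 1.22 (SD, n = 6), Gas5 at 1.76 ± 0.89 (SD, n = 6) and Snhg12 at 1.54 ± 0.60 (SD, n = 6), with median percentiles of 97.1, 94.7 and 93.0. As the intronic value is subtracted, a high intronic share by itself raises this rate. In total RNA that share was 57.8%, 47.1% and 31.7% for Snhg3, Gas5 and Snhg12, beside a median of 17.0% over all genes. Its part in these rates was not tested. Neighbors among these 3 differed by 0.29 ± 0.51 and 0.22 ± 0.46 (SD, n = 6), which is within the spread. Snhg3 exceeded Gas5 in 5 of 6 pairs, as Gas5 did Snhg12, and Snhg3 was not compared with Snhg12. With the most abundant transcript alone Snhg1 was at 4.25, Snhg12 at 2.23 and Gas5 at 2.03. Snhg3 was then at 4.18, but its transcript ENSMUST00000141090 had a rate in 1 pair only. This value therefore has no spread and cannot be ranked beside that of Snhg1. Snhg7 was at 0.56 ± 1.28 (SD, n = 5), above the median gene in 3 of 5 pairs.

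The processing rates spread around the median gene. Snhg12 stood at 0.34 ± 0.55 and above the median gene in 5 of 6 pairs. Gas5 was at -0.40 ± 0.04, with all 6 pairs between -0.46 and -0.37. Snhg3 was at -0.77 ± 0.74 and the Snhg1 locus at -1.14 ± 0.43 (SD, n = 6 each). Snhg12 exceeded Gas5 in 5 of 6 pairs, by 0.74 ± 0.54 (SD, n = 6). Gas5 exceeded Snhg3 in 4 of 6 pairs, as Snhg3 did Snhg1, and both differences were within the spread. These rates depended on which transcripts entered. With the most abundant transcript alone they were -1.08 for Snhg12, -1.11 for Gas5, -2.27 for Snhg3 and -1.61 for Snhg1. At 60 min alone Snhg12 was also below the median gene (-0.29).

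Synthesis rates depended on how the transcripts of a gene were combined. Whether a summed value grows with the number of annotated transcripts was not tested. The value of a gene was spread over its transcripts. The highest of 5 transcripts held a median of 32.5% of a gene's value over 616 genes, where equal shares would be 20%, and the highest of the 25 Gas5 transcripts held 7.52%, where equal shares would be 4%. Summed over transcripts, synthesis was 8.59 ± 0.36 for Gas5, 4.75 ± 0.45 for Snhg12, 4.67 ± 0.48 for Snhg3, 2.54 ± 0.26 for Snhg1 and -0.80 ± 1.07 for Snhg7 (SD, n = 6). As a mean over transcripts it was 5.25 for Gas5, 3.84 for Snhg1, 3.65 for Snhg3, 3.47 for Snhg12 and 0.50 for Snhg7. Gas5 stood first and Snhg7 last in both orders, and the order of the other 3 changed.

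**Figure D5:**
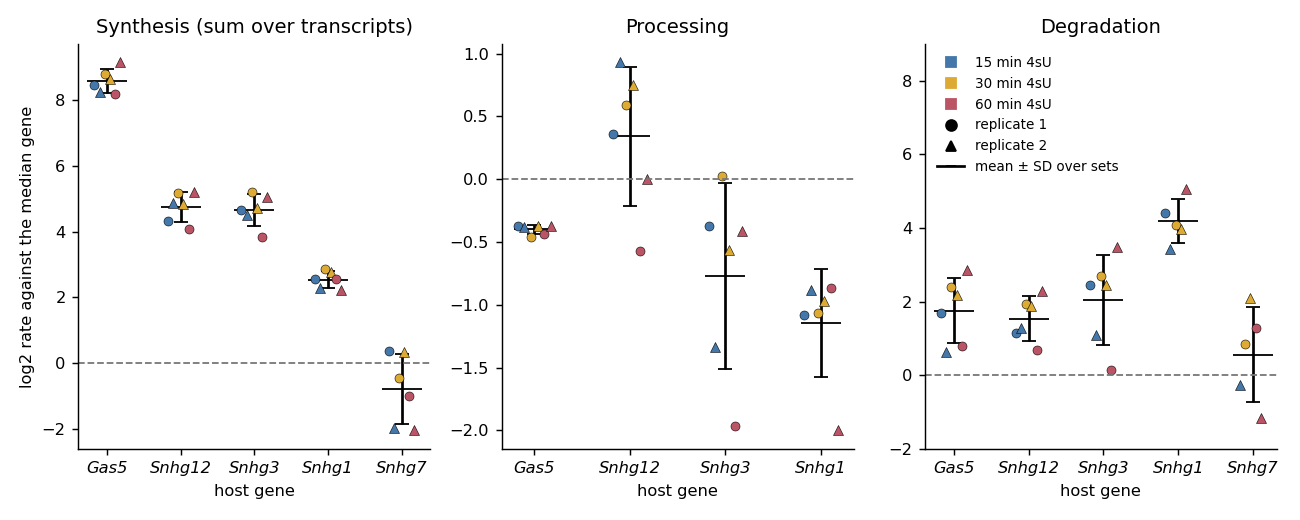
Log2 synthesis, processing and degradation rates of the hosts against the median gene of the same pair of libraries (dashed line), with 1 point for each pair, color for the labeling time, symbol for the replicate, and mean ± SD over pairs. Degradation rates of Gas5, Snhg12, Snhg3 and Snhg1 lie above 0 in every pair with a rate, and the 6 processing rates of Gas5 lie between -0.46 and -0.37.

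Processing rates also differed between the transcripts of a host. Against the median transcript, rates in Gas5 ran from -3.02 ± 0.61 for ENSMUST00000159663 to 0.93 ± 0.58 for ENSMUST00000160497, which has 2 exons. In Snhg12 they ran from -0.85 ± 0.62 for ENSMUST00000128131 to 2.14 ± 0.57 for ENSMUST00000144705, whose introns are shown above. In Snhg3 they ran from -2.04 ± 0.69 for ENSMUST00000141090 to 0.08 ± 0.79 for ENSMUST00000152943 (SD, n = 6 each). For 3 of 25 Gas5 transcripts and 1 of 5 Snhg3 transcripts the mean intronic value exceeded the exonic value in total RNA.

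Lists of genes around the snoRNA pathway are given as counts, with their median beside that of all genes. Among all genes 5.29% were higher and 11.6% lower by exonic value, 32.3% higher and 0.329% lower by intronic value, and 0.259% higher and 26.8% lower in the ratio. Of 18 proteins that assemble or form snoRNPs, 1 was higher and 1 lower in labeled RNA by exonic value (median -0.03, all genes -0.05). These were Nop56, a core protein of C/D box snoRNPs and itself a snoRNA host (log2 0.45, SE 0.13, limma adjusted p = 0.0353), and Ruvbl2, an ATPase of snoRNP assembly (-0.47, SE 0.12, limma adjusted p = 0.0201). Of 13 NMD factors 2 were lower, Casc3 and Eif4a3 (-0.58, SE 0.11, limma adjusted p = 0.00637 and -0.48, SE 0.13, limma adjusted p = 0.0233), and 0 were higher (median -0.21). Of the other noncoding hosts 2 of 18 listed names could be tested, and neither Snhg11 (0.66, SE 0.23, limma adjusted p = 0.0649) nor Meg3 (0.10, SE 0.20, limma adjusted p = 0.76) passed.

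Protein-coding snoRNA hosts, mostly genes of ribosomal proteins and translation factors, carry snoRNAs in the introns of a translated mRNA. Nop56, Dkc1 and Rcc1 belong to this list and Nop56 and Dkc1 also to the snoRNP proteins. Of 30 such genes 2 were higher by exonic value, Taf1d (0.59, SE 0.18, limma adjusted p = 0.0462) and Nop56, and 3 were lower, Eef2, Cnot1 and Eif4a1, with a median of -0.04 beside 1.12 for Snhg12 and 0.94 for Gas5. By intronic value 22 of 29 were higher and 0 lower (median 1.23, all genes 0.65), from Rpl10 (0.75) to Rpl7a (2.04, SE 0.27, limma adjusted p = 0.000702). Their exon to intron ratio was lower in 17 of 29 and higher in 0 (median -1.04, all genes -0.68), with Rpl7a lowest (-2.07, SE 0.32, limma adjusted p = 0.00375), whereas 0 of the 4 noncoding hosts passed in this ratio. The difference between the 2 kinds of host was not tested. Of the snoRNP proteins 7 of 15 were higher by intronic value and 4 of 15 lower in the ratio, and of the NMD factors 2 of 10 and 2 of 10. Of the other noncoding hosts 0 of 2 passed in either.

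The 5 genes whose exonic values over the 12 libraries were most correlated with the mean standardized value of the 5 hosts were Gm17300 (Pearson r = 0.97), Zfp629 (0.96), Plcxd1 (0.96), Gm13059 (0.95) and Gm11407 (0.95). Gm17300 overlaps Snhg3 on the opposite strand. The points share the same 12 libraries and their split into labeled and total RNA. Among the hosts, r was 0.94 between Snhg12 and Gas5, 0.88 between Snhg3 and Gas5 and 0.86 between Snhg12 and Snhg3, while Snhg1 had 0.76 with Snhg12, 0.75 with Gas5 and 0.52 with Snhg3. For Snhg7 with each other host r was between 0.42 and 0.56.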

How the data were processed

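RNA of mESCs labeled with 4sU was analysed as labeled and total RNA in 12 libraries. The authors removed rRNA reads with STAR, aligned the other 100-nucleotide single-end reads to exonic and intronic sequences and quantified them with RSEM, and the submitters' processing notes name STAR 2.5.0, RSEM and mm10. The deposited signal values are length-normalized abundances per transcript, exons and introns apart, scaled to the same sum in each library. Values of 1 or less are missing and were taken as 0. Depth per library is unknown from the values, so no counting error is given.

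Transcripts were matched to GENCODE M1 (mm9) by identifier, and values were summed over the transcripts of a gene. limma 3.58.1 in R 4.3.3 was fitted over all genes or transcripts with a mean value of at least 20, after adding 1 and taking log2. The model held the RNA fraction and the labeling time, the variance was moderated along a trend in the mean, and p-values were adjusted after Benjamini and Hochberg with a threshold of 0.05. Adding 1 understates differences between low values, whereas a value listed at 0 beside a larger one can overstate them. For SNORD24 the log2 difference of 3.89 became 2.27 with a pseudocount of 10. Each labeled against total comparison used all 12 libraries. The comparisons of 60 against 15 min were contrasts in a model of the 6 groups, fitted to all 12 libraries with a shared estimate of the spread. Python 3.11.15 with pandas 2.3.3 served the remaining steps. Per the labels a number marks 1 of 2 biological replicate cultures. Labeled and total libraries of a number and time were therefore paired for the rates and in an alternative fit with a replicate block. The main fits did not pair them. As a check, deviations from the group means were correlated between the labeled and the total library of a number, with r of -0.07, 0.05 and -0.19 at 15, 30 and 60 min. Correlations between the replicates of a group were 0.88 to 0.94.

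The hosts were named by the rule that selected them. Their transcripts named are the most abundant, those that passed a test at its ends, and those with the highest and lowest rate. Lists of snoRNP proteins, NMD factors and other hosts, the snoRNAs inside the hosts and the 5 genes most correlated with the hosts complete the rule, with the largest and smallest member of a list named. Members and lists were chosen with earlier results of these data known. On simulated data over 13979 genes, the exonic comparison recovered 122 of 200 genes changed by 1 on the log2 scale, and 187 of 200 changed by 2. For the exon to intron ratio over 7732 genes it was 5 and 169 of 200. For exonic values of 45537 transcripts it was 74 and 172 of 200. Only 200 features changed in each simulation, whereas 2091 genes passed the ratio test in the data. The adjusted threshold was thus stricter in the simulation, and these counts do not give the share of changes missed in the data. Alternatives were another pseudocount, other filters, no trend, median centering, a replicate block, either replicate left out, and, for rates, other ways to combine transcripts and replicates. Leaving out a labeling time or a single library, crossed pairing and the mean over transcripts were chosen after seeing the data.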

Additional observations from a re-analysis of the deposited data

How the results depend on the processing

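Every host kept the direction of its exonic and intronic difference between labeled and total RNA under all 12 alternatives, or 11 where the filter of 100 removed it. Calls of hosts were lost with libraries: from 4 of 5 by exonic value to 0 without either replicate and 0 without the 30 min libraries, from 28 of 38 transcripts to 0 without either replicate, 0 without the 30 min and 18 without the 15 min libraries, and from 4 of 4 by intronic value to 2 to 4 without a replicate, 0 without the 30 min libraries and 1 with libraries centered on their median. The fits that leave libraries out have fewer samples. Among all features called, the exonic gene count of 2354 became 1271 with the replicate block, 752 without the 15 min and 1 without the 30 min libraries, and 0 to 5 without a replicate. The intronic count of 2977 became 835 with a filter of 100, 4661 with no filter, 1714 with centering, 1776, 0 and 1958 without the 15, 30 and 60 min libraries, and 1095 to 4804 without a replicate. The ratio count of 2091 became 773 with a filter of 100, 0 and 485 without the 30 and 60 min libraries, and 253 to 3453 without a replicate. The transcript count of 7888 became 4470 with the replicate block, 5063 with a filter of 100, 2733, 0 and 5208 without the 15, 30 and 60 min libraries, and 0 to 7 without a replicate. The count of changed transcript shares, 307, became 118 with a filter of 100, 22 with no filter, 13 with the replicate block, 144 with the numbers crossed at 60 min, 0, 0 and 10 without the 15, 30 and 60 min libraries, and 0 without either replicate. With the numbers crossed at 60 min 2717 genes passed by exonic value. Of labeled 60 against 15 min, 0 genes became 6 with no filter and 2 without the trend, and 0 to 8 with 1 labeled library left out. Of total 60 against 15 min, 0 became 4 with a pseudocount of 10, 8 with no filter, 4 without the trend and 3 with centering, and 0 to 7 with 1 total library left out. With a whole replicate left out these 2 comparisons have no residual degrees of freedom and were not run. With no host called, none of these changed a host's call. Of the hosts with a processing rate, 1 of 4 stood above the median gene, and 0 did with the most abundant transcript alone or at 60 min alone, where Snhg12 turned to -1.08 and -0.29. Snhg7 turned in degradation at 15 min alone (-0.26) and in synthesis with the mean over transcripts (0.50) or the most abundant transcript (0.10). The causes were not tested. With the replicate block Snhg3 did not pass by exonic value and 25 of 38 host transcripts passed, and no other call of a host gene changed.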
